A study of Mustela putorius furo and Mus musculus with 4 samples.

Results

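Glycolysis, glucose entry, lactate handling and the gate between pyruvate and the mitochondrion were examined through 35 genes chosen by name. They comprise the glycolytic enzymes and their paralogs, the PFKFB regulators, lactate dehydrogenases, glucose, monocarboxylate and mitochondrial pyruvate carriers, and the pyruvate dehydrogenase E1 subunits and kinases. Of these, 27 were found under the same symbol in the ferret and the mouse values and were compared, out of 13373 shared symbols, of which 10204 were tested. All 27 passed the filter of a mean of at least 1 FPKM in at least one species, and one of them, Slc16a3, was below 1 FPKM in the ferret. The other 8 (Aldoa, Tpi1, Ldha, Ldhb, Slc16a1, Slc2a3, Mpc2 and Bsg) were found under their symbol among the mouse values alone, so they were not compared here and are given for the mouse only.

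RNA came from cultured cortical astrocytes, with 2 libraries from ferrets and 2 from mice. Ferret cells were taken from sable ferrets on postnatal day 1, and mouse cells from ICR mice on postnatal day 1 to 3. Both were kept as mixed glia with serum for 14 days, then shaken and plated anew. The medium was exchanged on day 3 of the second plating for a serum-free one that contained sodium pyruvate, and cells were lysed for RNA on day 7. Ferret flasks were seeded from single pups and mouse flasks from pooled pups, and nothing in the sources states whether the duplicates of a species were separate cultures, so the p-values below measure the spread between these libraries, which may be technical. The values are FPKM (fragments per exon kilobase, scaled to the mapped fragments of the library), a level per length that can be compared between genes. The deposited values hold no read counts, the counts and gene lengths that the study lists elsewhere were not used here, and every ferret gene was measured on the ferret annotation and every mouse gene on the mouse annotation, so a species difference in level and a difference in gene model length or completeness cannot be told apart from these values.

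Glycolysis splits glucose into pyruvate in the cytosol. Hexokinase traps glucose in the cell, phosphofructokinase commits it to the pathway, and the lower enzymes, from glyceraldehyde phosphate dehydrogenase to pyruvate kinase, recover ATP and NADH. Pyruvate is then reduced to lactate and exported through monocarboxylate transporters, or imported into mitochondria and oxidized by pyruvate dehydrogenase, which its kinases switch off. Astrocytes are known for a high glycolytic rate and for releasing lactate that neurons can take up, and several steps are served by paralogs with different kinetics and tissue distribution, so the choice of paralog is part of the description below.

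The 27 genes spanned the range from 0.636 FPKM (Slc16a3 in a ferret library) to 1700 FPKM (Aldoc, also in the ferret), and their order was similar in the species (Spearman's rho of the species means = 0.935 across the 27 genes, which are not independent replicates). Aldoc, the aldolase of brain and a common astrocyte marker, and Gapdh were the most abundant of them in all 4 libraries. Within the summed FPKM of the 27 genes, Aldoc accounted for 34.7% and 33.8% in the ferret libraries against 23.9% and 24.8% in the mouse libraries, and Gapdh for 27.2% and 28.1% against 17.4% and 17.5%. Together the 27 genes took 2.05% and 2.13% of the summed FPKM of all shared symbols in the ferret libraries against 1.27% and 1.33% in the mouse libraries. Without Aldoc and Gapdh the same shares were 0.78% and 0.809% in the ferret and 0.748% and 0.767% in the mouse. The higher ferret share therefore lay mostly with that pair of genes. Near-identical mouse copies, described below, are not in these sums (those of Eno1 held 262 and 274 FPKM). The shares were not recomputed with the copies.

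**Figure D1:**
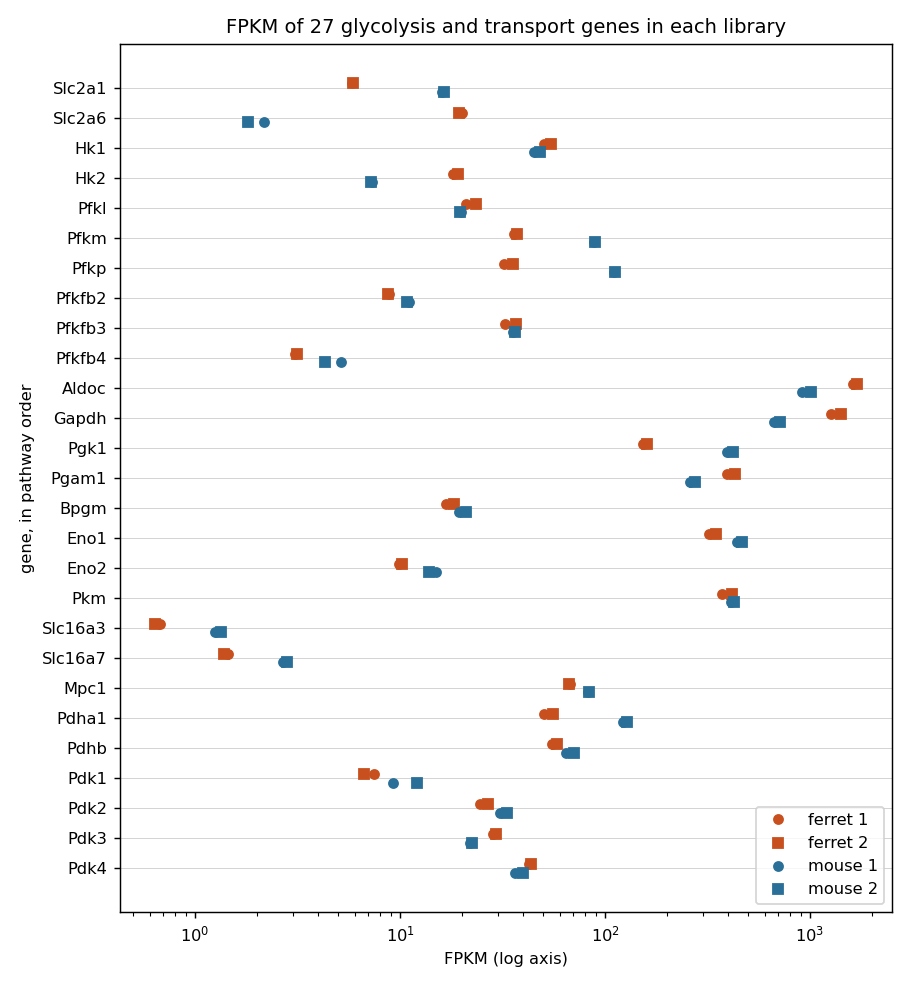
FPKM on a log axis of the 27 genes in pathway order, with one point per library (orange ferret, blue mouse, circles replicate 1, squares replicate 2). Slc2a6 and Hk2 lie to the right in the ferret libraries, Slc2a1, Pfkm, Pfkp, Pgk1 and Pdha1 to the right in the mouse libraries, and the species overlap for Pkm and Pfkfb3.

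Duplicates of a species differed by at most 1.13-fold (ferret) and 1.31-fold (mouse) for any of the 27 genes, and the larger of these ratios belonged to Pdk1 in the mouse. A gene was called when limma gave an adjusted p under 0.05 and a log2 difference (ferret minus mouse, of FPKM + 1) beyond 1 in either direction. Hk2 and Slc2a6 were called higher in the ferret, 2 of 27 genes, where 13.1% of all tested genes were called higher. Pfkm, Pfkp, Pgk1, Slc2a1 and Pdha1 were called lower, 5 of 27, where 30.1% of all tested genes were called lower. Another 18 of the 27 had an adjusted p under 0.05 with a smaller difference, 7 of them higher and 11 lower in the ferret as deposited, Slc16a3 among the latter by its passing the filter through the mouse alone. Counting on the adjusted p alone gave 25 of 27, against 88.6% of all tested genes, and the libraries of the species did not overlap for 25 of 27, against 94.1% of all tested genes. Read against these shares, the counts on the adjusted p and on overlap were near those of all genes, the calls made up a smaller share of the 27 than of all genes, and the 27 genes were not tested against the rest. Their median log2 difference was -0.29, and that of all tested genes was -0.35.

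The summed FPKM of the shared symbols was 227391 and 236543 in the ferret libraries against 300465 and 308122 in the mouse libraries, so the scale on which the species are set side by side moves the calls. With each library rescaled to the mean of these sums, the median of all genes moved from -0.35 to -0.01 and that of the 27 genes from -0.29 to 0.08. On that scale 20 rather than 25 of the 27 had an adjusted p under 0.05, and the signs of all 27 turned from 9 positive and 18 negative to 16 and 11. There 5 of the 27 were called higher in the ferret (Hk2, Slc2a6, Aldoc, Gapdh and Pgam1), where 19.1% of all tested genes were called higher. Pfkp alone was called lower, where 21.7% of all tested genes were called lower. Pfkm (log2 difference -0.87), Pgk1 (-0.97), Slc2a1 (-0.98) and Pdha1 (-0.84) remained lower in the ferret but fell short of the size limit. Hk2 and Slc2a6 (higher) and Pfkp (lower) were called under every scaling and every other alternative that was run.

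**Figure D2:**
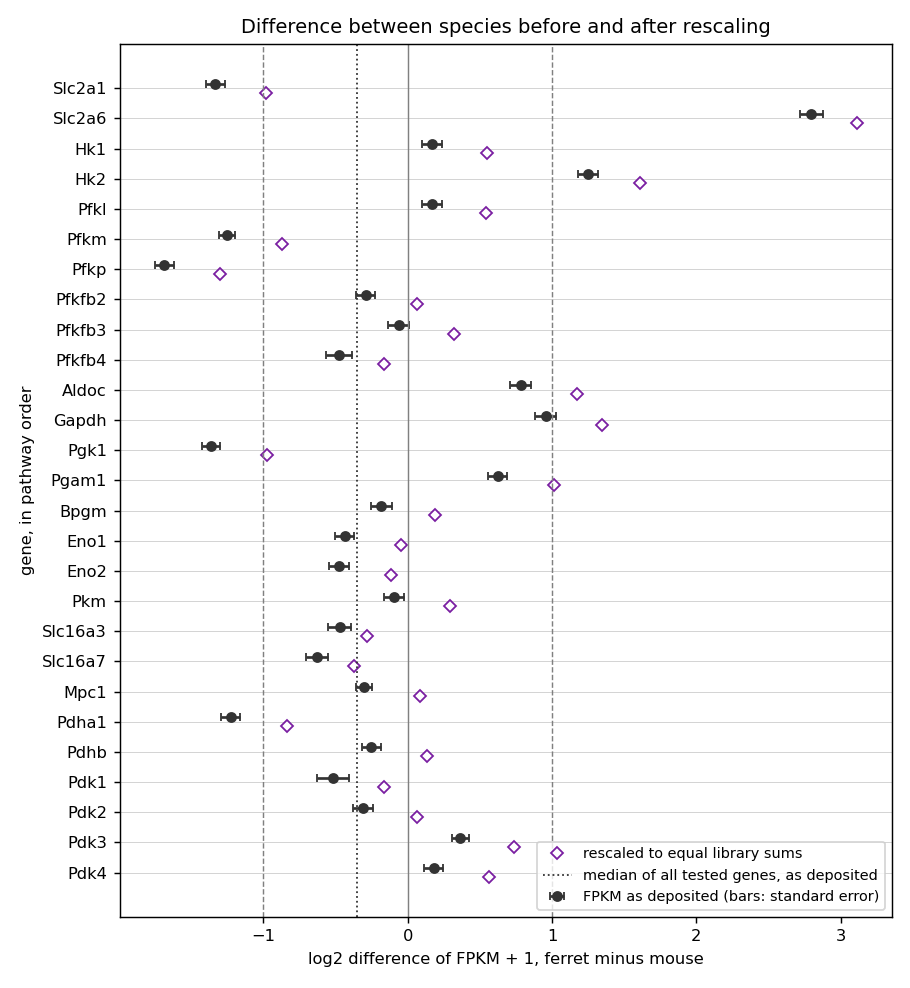
Log2 difference in FPKM + 1, ferret minus mouse, of the 27 genes (filled points with standard error, values as deposited, and open diamonds, libraries rescaled to equal sums). Dashed lines mark the size limit of 1 in either direction and the dotted line the median of all 10204 tested genes (-0.35), and rescaling moves every gene to the right, taking Pfkm, Pgk1, Slc2a1 and Pdha1 inside the limit and Aldoc, Gapdh and Pgam1 outside it.

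Among glucose carriers, Slc2a6 and Slc2a1 were compared, and Slc2a3 was read in the mouse alone. Slc2a6 encodes GLUT6, a transporter found on intracellular membranes, and in the mouse genome (build GRCm38) lies at chr2:27021363-27027998 on the minus strand, with 7 exonic regions. Slc2a6 measured 20.1 and 19.4 FPKM in the ferret libraries against 2.18 and 1.82 FPKM in the mouse libraries. The ferret mean was 9.91-fold the mouse mean, with a log2 difference of 2.80 ± 0.081 (standard error) and an adjusted p of 7.07e-10. Slc2a1 encodes GLUT1, the main carrier of glucose into astrocytes and across the vessel wall, at chr4:119108711-119137983 on the plus strand with 12 exonic regions. Slc2a1 was low in the ferret, at 5.83 and 5.86 FPKM, and measured 16.1 and 16.5 FPKM in the mouse, a difference of -1.33 ± 0.066 on the log2 scale (adjusted p = 2.99e-08). The order of the pair was thus opposite in the species. The ratio of Slc2a6 to Slc2a1 was 3.45 and 3.32 in the ferret libraries against 0.136 and 0.11 in the mouse libraries. Slc2a3, which encodes the neuronal carrier GLUT3, was measured in the mouse alone, at 4.54 and 5.25 FPKM, and the 3 carriers together gave mouse shares of 70.5% and 70.0% for Slc2a1, 19.9% and 22.3% for Slc2a3 and 9.56% and 7.73% for Slc2a6.

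Such shares, the FPKM of one paralog over the sum of its family in the same library, do not depend on how a library is scaled. Of the summed FPKM of Slc2a1 and Slc2a6, Slc2a6 took 77.2% ± 0.505 (SD) in the ferret and 10.9% ± 1.41 in the mouse, 66.2 percentage points apart. Shares were compared for 22 genes of 9 families and did not overlap between the species for 19 of them, where the FPKM of 94.1% of all tested genes did not overlap. In a family of 2 genes one share fixes the other, so these are not separate results. With 2 libraries against 2, the two-sided exact permutation test cannot give a p below 0.33, which each of these 19 reached, so no share can pass a threshold of 0.05 by that test. The differences are therefore given beside the spread of the duplicates.

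**Figure D3:**
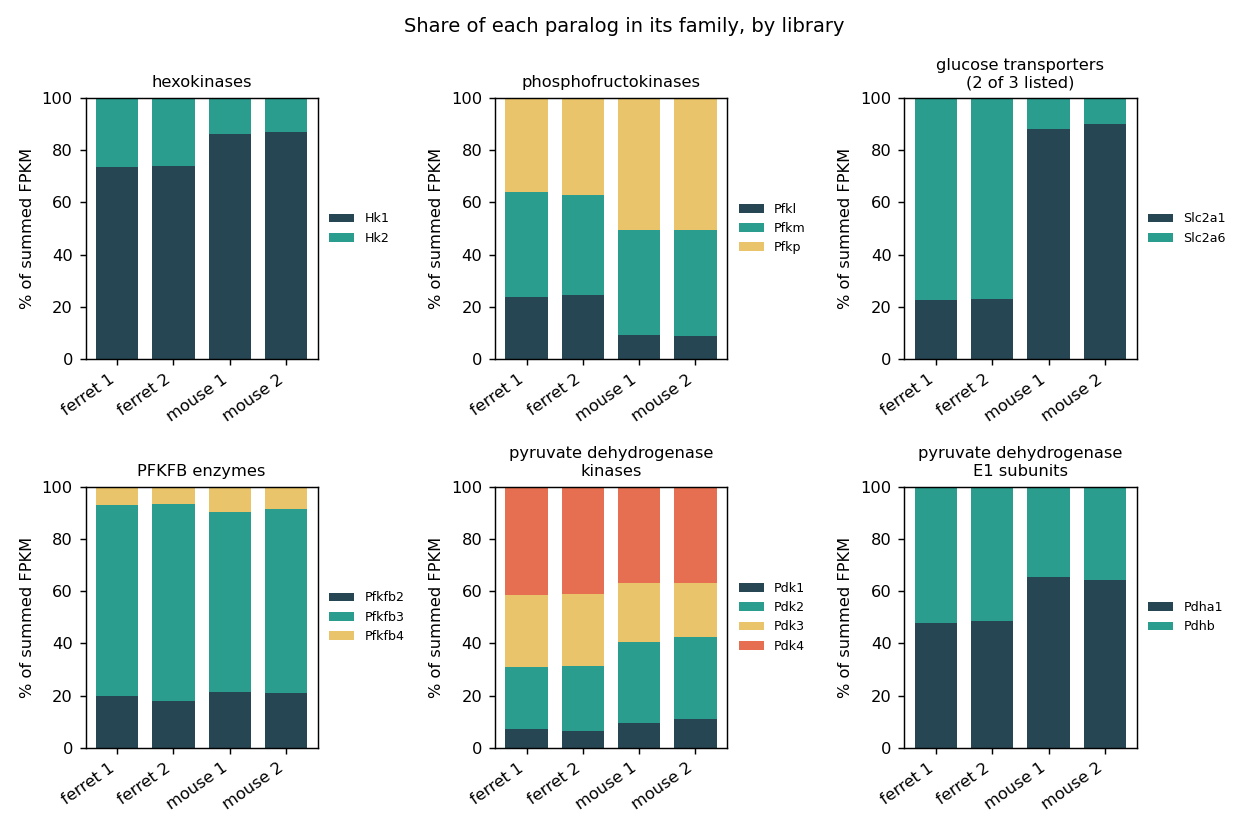
Share of each paralog or subunit in the summed FPKM of its family, as a stacked bar for each of the 4 libraries, in 6 families. Duplicates are close to each other, and the species differ most for the glucose transporters, where Slc2a6 takes 77.5% and 76.8% in the ferret and 11.9% and 9.95% in the mouse.

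Both hexokinases were measured. Hk1 is the constitutive brain enzyme and Hk2 the inducible enzyme of muscle and of rapidly growing cells, and both bind to mitochondria. Hk2 measured 18.1 and 19.1 FPKM in the ferret libraries against 7.27 and 7.21 FPKM in the mouse libraries, so that both ferret values lay above both mouse values. The ferret mean was 2.57-fold the mouse mean, a log2 difference of 1.25 ± 0.067 (adjusted p = 4.84e-08). In the mouse genome Hk2 lies at chr6:82725025-82774454 on the minus strand with 20 exonic regions. Hk1 was the more abundant of the pair in both species, at 50.2 and 54.7 FPKM in the ferret and 44.8 and 48.4 FPKM in the mouse. Its log2 difference of 0.17 ± 0.068 (adjusted p = 0.0404) was under the size limit, and was 0.11 (adjusted p = 0.19) without ferret replicate 2 and 0.55 (adjusted p = 3.85e-05) after rescaling. The ratio of Hk1 to Hk2 was 2.77 and 2.86 in the ferret and 6.16 and 6.71 in the mouse, and the share of Hk2 was 26.2% ± 0.452 against 13.5% ± 0.709, a difference of 12.7 points.

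Phosphofructokinase, the committed step, is a tetramer of muscle (Pfkm), liver (Pfkl) and platelet (Pfkp) subunits. Pfkp had 32.0 and 35.6 FPKM in the ferret and 110 and 111 FPKM in the mouse. The mouse mean was 3.28-fold the ferret mean (log2 difference -1.69 ± 0.066, adjusted p = 5.20e-09). Pfkm had 35.9 and 37.2 FPKM in the ferret and 87.9 and 88.9 FPKM in the mouse, a log2 difference of -1.25 ± 0.057 (adjusted p = 1.50e-08). Both of these subunits were thus lower in the ferret as deposited, while the third was not. Pfkl had 21 and 23.6 FPKM in the ferret and 19.8 and 19.5 FPKM in the mouse, with a log2 difference of 0.17 ± 0.070 (adjusted p = 0.0434) that was under the size limit, and was 0.09 (adjusted p = 0.199) without ferret replicate 2 and 0.54 (adjusted p = 9.32e-05) after rescaling. The family was accordingly made up differently. Pfkl took 24.1% ± 0.563 in the ferret against 8.99% ± 0.123 in the mouse, and Pfkp 36.5% ± 0.696 and 50.6% ± 0.00603. The share of Pfkm was 39.5% in the ferret and 40.4% in the mouse, with overlapping libraries (exact permutation p = 0.667). Thus 15.1 points more went to Pfkl in the ferret and 14.2 points more to Pfkp in the mouse. Mouse Pfkp lies at chr13:6579768-6648777 on the minus strand with 24 exonic regions, and mouse Pfkm at chr15:98092589-98132451 on the plus strand with 25.

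The PFKFB enzymes make and remove the sugar bisphosphate that activates phosphofructokinase, and Pfkfb3, the member with the strongest kinase activity, dominated them in all 4 libraries. Pfkfb3 measured 32.5 and 36.7 FPKM in the ferret and 35.7 and 36.5 FPKM in the mouse, with overlapping libraries and a log2 difference of -0.06 ± 0.070 (adjusted p = 0.406). Pfkfb2, the heart form, had 8.82 and 8.73 against 11.1 and 10.9 FPKM (log2 difference -0.29, adjusted p = 0.00216). Pfkfb4 had 3.07 and 3.15 against 5.14 and 4.32 FPKM (log2 difference -0.48, adjusted p = 5.53e-04, and -0.17, adjusted p = 0.13, after rescaling). None of the 3 passed the size limit, and the sign of Pfkfb2 and Pfkfb3 turned positive after rescaling. Pfkfb3 took 74.4% ± 1.65 of the family in the ferret and 69.7% ± 1.30 in the mouse.

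From aldolase to pyruvate kinase the enzymes did not move as one block. Aldoc, Gapdh and Pgam1 were more abundant in the ferret and Pgk1 in the mouse, Eno1 was more abundant in the mouse as deposited, and the libraries of the species overlapped for Pkm. Aldoc measured 1619 and 1700 FPKM in the ferret and 916 and 1015 FPKM in the mouse (log2 difference 0.78 ± 0.073, adjusted p = 3.59e-06). Gapdh measured 1270 and 1415 FPKM in the ferret and 668 and 714 FPKM in the mouse (0.96 ± 0.075, adjusted p = 8.79e-07). Both sets of ferret values lay above the mouse values, but the differences were under the size limit, and Gapdh passed it when ferret replicate 1 (1.03) or mouse replicate 2 (1.00) was left out. Pgk1, the phosphoglycerate kinase that makes the first ATP of the lower pathway, followed the opposite order, with 154 and 161 FPKM in the ferret and 393 and 420 FPKM in the mouse. The mouse mean was 2.58-fold the ferret mean (log2 difference -1.36 ± 0.062, adjusted p = 1.54e-08). Mouse Pgk1 lies at chrX:106187100-106203699 on the plus strand with 11 exonic regions. Since Gapdh and Pgk1 catalyze consecutive steps, their ratio was also formed within each library, where scaling cancels. It was 8.25 and 8.81 in the ferret and 1.70 and 1.70 in the mouse.

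Pgam1, the phosphoglycerate mutase of brain, measured 395 and 432 FPKM in the ferret and 261 and 274 FPKM in the mouse (log2 difference 0.62, adjusted p = 9.54e-06). Eno1, the ubiquitous enolase, measured 323 and 346 FPKM in the ferret and 438 and 467 FPKM in the mouse (log2 difference -0.43 ± 0.065, adjusted p = 1.30e-04, and -0.04, adjusted p = 0.314, after rescaling). The ratio of these neighbouring steps, Pgam1 to Eno1, was 1.22 and 1.25 in the ferret and 0.595 and 0.587 in the mouse, so that the order of the pair was opposite in the species. Eno2, the neuronal enolase, was low in both, at 9.93 and 10.2 FPKM in the ferret and 15.0 and 13.8 FPKM in the mouse (log2 difference -0.48, adjusted p = 1.01e-04, and -0.12, adjusted p = 0.146, after rescaling). Its shares of the enolases (2.92% and 3.09%) overlapped between the species. Bpgm, which makes the effector that lowers the oxygen affinity of hemoglobin, measured 16.8 and 18.4 FPKM in the ferret and 19.3 and 20.9 FPKM in the mouse (log2 difference -0.18, adjusted p = 0.0347, positive after rescaling). The deposited difference of Bpgm ran from -0.12 without ferret replicate 1 to -0.24 without ferret replicate 2. Pkm, the pyruvate kinase, measured 370 and 414 FPKM in the ferret and 410 and 427 FPKM in the mouse. These overlapped, with a log2 difference of -0.10 ± 0.070 (adjusted p = 0.222) that turned positive after rescaling (0.30). It ran from -0.02 without ferret replicate 1 to -0.18 (adjusted p = 0.0321) without ferret replicate 2. One FPKM per gene holds no transcript isoforms, so the M1 and M2 forms of Pkm could not be told apart.

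In the mouse libraries alone, Aldoa, the aldolase of muscle and most other tissues, measured 492 and 538 FPKM, and Aldoc took 65.0% and 65.3% of the aldolases. Triosephosphate isomerase, encoded by Tpi1, measured 241 and 250 FPKM there. Glucose phosphate isomerase carries the symbol GPI in the ferret values and Gpi1 in the mouse values. It measured 129 and 142 FPKM in the ferret libraries against 232 and 235 FPKM in the mouse libraries, and was not tested.

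Several of these enzymes have near-identical copies elsewhere in the mouse genome, mostly processed pseudogenes, and reads that match both can be counted for either. The coding sequences of the 35 genes were therefore searched against mouse transcripts (GENCODE M21, build GRCm38), and a copy was counted at an identity of at least 90% over at least 50% of the coding length. The stretches below are shown because they hold the most differences found in any window of 60 bases between each gene and one abundant copy. They are written 5′ to 3′ on the coding strand, as bases of the coding sequence counted from the start codon, with bases that differ in capitals. The Eno1 stretch covers bases 1174 to 1233 and that of Gapdh bases 365 to 424. Eno1 lies at chr4:150236721-150248879 (plus strand) and its copy Gm4735 at chr2:80837141-80838442 (plus strand). Gapdh lies at chr6:125161715-125166467 (minus strand) and its copy Gm13394 at chr2:28933610-28934609 (minus strand).
Eno1: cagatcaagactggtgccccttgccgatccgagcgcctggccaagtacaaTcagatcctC
Gm4735: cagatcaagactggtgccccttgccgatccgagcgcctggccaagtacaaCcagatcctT
Gapdh: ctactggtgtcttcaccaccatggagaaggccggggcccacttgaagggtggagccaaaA
Gm13394: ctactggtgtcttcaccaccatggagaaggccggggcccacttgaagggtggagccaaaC

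Even in these windows the copy of Eno1 differed at 2 bases and that of Gapdh at 1. Of all windows of 100 bases of the coding sequence, 69.3% recurred exactly in another transcript for Eno1, 93.9% for Gapdh, and 100% for Pgk1 and for Pgam1. Gm4735 was listed with 116 and 121 FPKM in the mouse libraries, next to 438 and 467 FPKM for Eno1 itself, and another copy, Eno1b, with 129 and 136 FPKM. Of the 6 copies of Eno1, 5 had a value used here, and these summed to 262 and 274 FPKM, 37.4% and 37.0% of the total of gene and copies. Of the 153 copies of Gapdh, 152 had a value, and these summed to 234 and 252 FPKM (26.0% and 26.1% of the total), of which Gm13394 alone held 169 and 181 FPKM. The 2 copies of Pgk1, Gm5537 and Pgk1-rs7, summed to 139 and 150 FPKM (26.2% and 26.3%), and the 3 copies of Pgam1 to 91.2 and 94.8 FPKM (25.9% and 25.7%). For these 4 enzymes between 25.7% and 37.4% of the summed FPKM was therefore listed outside the gene, at nearly the same value in both mouse libraries. FPKM is a level per length, and gene and copies can differ in length, so this need not be the share of fragments. Mpc1 had 1 copy with 33.2 and 34.1 FPKM (28.8% and 29.0%), and Ldhb 1 copy with 73.4 and 76 FPKM (14.4% and 14.2%). Of the 5 copies of Pkm, 4 had a value and held 2.92% and 2.75% of its total, and the copy of Pdhb 3.78% and 3.26%. The hexokinases, the phosphofructokinases, Aldoc, Slc2a1 and Slc2a6 had 0 such copies, and the single copy of Pdha1 was listed at 0.

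Copies were then added to the mouse genes alone, so the deposited difference, ferret minus mouse, could only fall. This alternative was chosen after the data had been seen. Ferret copies were not analysed here, so the ferret values stand alone on the other side. Eno1 then differed by -1.10 on the log2 scale (adjusted p = 1.07e-07) and was called lower in the ferret, and Pgk1 moved from -1.36 to -1.80. Gapdh moved from 0.96 to 0.52, Pgam1 from 0.62 to 0.20 and Mpc1 from -0.31 to -0.79. With copies added and the libraries rescaled, Hk2, Slc2a6 and Aldoc were called higher in the ferret and Pfkp and Pgk1 lower, so that Gapdh (0.92) and Pgam1 (0.59) were no longer called. The calls of Gapdh, Pgam1, Eno1 and, on the rescaled values, Pgk1 thus turned on the treatment of copies. Hk2, Slc2a6 and Pfkp had 0 copies, so adding copies could not change their deposited values.

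**Figure D4:**
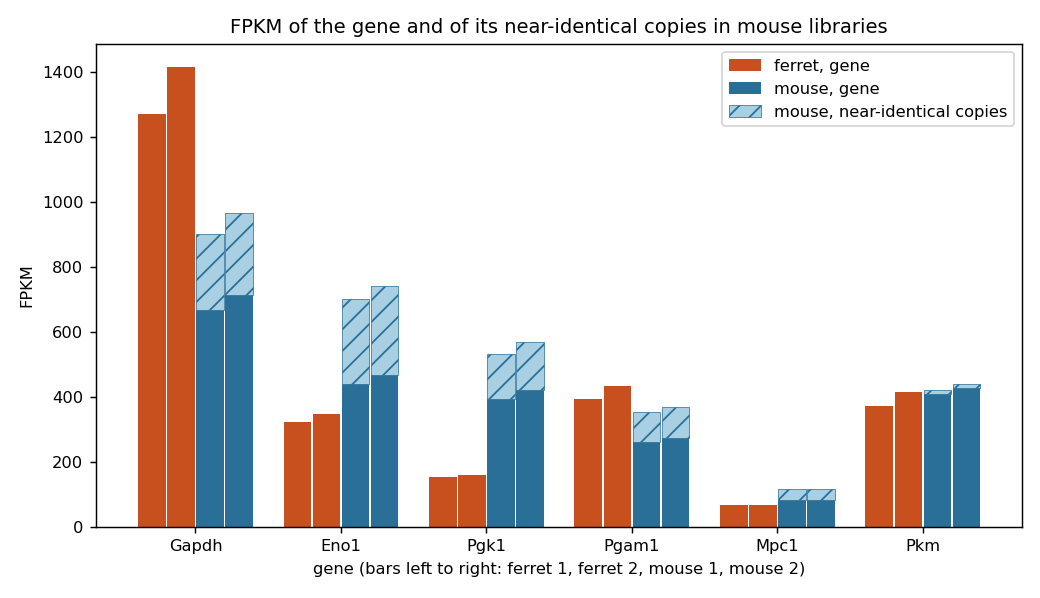
FPKM of 6 genes with copies, in the 2 ferret libraries (orange), the 2 mouse libraries (blue) and, stacked on the mouse bars and hatched, the summed FPKM of the near-identical mouse copies. With copies, the mouse bar of Eno1 grows by 262 and 274 FPKM and that of Gapdh by 234 and 252 FPKM, and Gapdh stays higher in the ferret.

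For lactate, the comparison rested on the low-abundance carriers. Slc16a7 encodes MCT2, a high-affinity carrier known from neurons, and measured 1.45 and 1.38 FPKM in the ferret and 2.68 and 2.80 FPKM in the mouse (log2 difference -0.63, adjusted p = 2.51e-05). Slc16a3 encodes MCT4, a low-affinity carrier of lactate-exporting cells, and measured 0.672 and 0.636 FPKM in the ferret and 1.25 and 1.34 FPKM in the mouse (log2 difference -0.47). Slc16a3 passed the filter through the mouse alone, which fixed its direction. Both were under the size limit, and rescaling reduced the differences to -0.37 for Slc16a7 and -0.29 for Slc16a3, and quantile normalization to -0.21 and -0.10. At these levels the added 1 FPKM narrows the difference, with mouse means 1.93-fold and 1.98-fold the ferret means. The abundant genes of this branch were read in the mouse alone. Slc16a1, which encodes MCT1, measured 84.3 and 88.0 FPKM and took 95.6% and 95.5% of the 3 monocarboxylate carriers there. Bsg, which encodes basigin, the partner that brings MCT1 and MCT4 to the membrane, measured 358 and 374 FPKM. Ldhb, the lactate dehydrogenase subunit of heart, measured 438 and 461 FPKM and Ldha, that of muscle, 297 and 306 FPKM, so that Ldhb made up 59.6% and 60.1% of the pair.

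At the entry to the mitochondrion, Pdha1 stood apart from its partner subunit. Pdha1 encodes the catalytic alpha subunit of pyruvate dehydrogenase, is the X-linked target of the kinases, and lies in the mouse at chrX:160122209-160138413 on the minus strand with 12 exonic regions. It measured 50.2 and 55.6 FPKM in the ferret and 122 and 128 FPKM in the mouse, a log2 difference of -1.22 ± 0.066 (adjusted p = 5.43e-08). Pdhb, the beta subunit that pairs with it, measured 54.8 and 58.5 FPKM in the ferret and 64.5 and 70.9 FPKM in the mouse (log2 difference -0.25, adjusted p = 0.00531, and 0.13 after rescaling). The ratio of alpha to beta subunit was 0.916 and 0.95 in the ferret and 1.89 and 1.80 in the mouse, and the share of Pdha1 48.3% ± 0.654 against 64.8% ± 0.768, a difference of 16.6 points. Mpc1, a subunit of the mitochondrial pyruvate carrier, measured 67.2 and 66.5 FPKM in the ferret and 82.3 and 83.4 FPKM in the mouse (log2 difference -0.31, adjusted p = 4.84e-04, and 0.08 after rescaling). Mpc2, its partner, measured 82.1 and 87.6 FPKM in the mouse.

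None of the 4 pyruvate dehydrogenase kinases passed the size limit. Pdk4, which starvation and fatty acids induce in many tissues, was the most abundant in every library, at 42.6 and 43.4 FPKM in the ferret and 36.2 and 39.6 FPKM in the mouse (log2 difference 0.18, adjusted p = 0.0227, and 0.56 after rescaling). The deposited difference of Pdk4 ran from 0.12 without mouse replicate 1 to 0.24 without mouse replicate 2. Pdk3 was also higher in both ferret libraries, at 28.4 and 29.2 against 22 and 22.3 FPKM (0.36, adjusted p = 2.38e-04, and 0.74 after rescaling). The other two lay the other way on the deposited scale. Pdk2, the most widespread form, measured 24.5 and 26.7 against 30.6 and 33.4 FPKM (-0.31, adjusted p = 0.00208, and 0.07 after rescaling). Pdk1, a target of hypoxia signalling, measured 7.49 and 6.64 against 9.19 and 12.1 FPKM (-0.52 ± 0.113, adjusted p = 0.00167, and -0.17, adjusted p = 0.229, after rescaling). Without mouse replicate 2 the deposited difference of Pdk1 was -0.34. As shares of the family, Pdk3 and Pdk4 took 27.6% ± 0.034 and 41.2% ± 0.327 in the ferret against 21.6% ± 1.17 and 36.9% ± 0.0698 in the mouse, and Pdk2 24.5% ± 1.01 against 31.2% ± 0.0758.

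Genes around these steps were read from lists of pathway members. Among other glycolytic enzymes, 5 of 17 listed genes were tested, where 13.1% of all tested genes were called higher and 30.1% lower (19.1% and 21.7% after rescaling). Of the 5, 1 was called higher and 2 lower in the ferret, with a median log2 difference of 0.53 (0.73 after rescaling, with the same counts). Those called lower, Hk3 and Pfkfb1, were under 1 FPKM in the ferret and passed the filter through the mouse alone, which fixed their direction. Eno4, named after its values were seen, gave both medians. It was at 0.662 and 0.735 FPKM in the mouse and passed through the ferret alone, which fixed its direction too. Tigar, a phosphatase that lowers the activator of phosphofructokinase, measured 27.6 and 26.6 FPKM in the ferret and 5.39 and 5.75 FPKM in the mouse (log2 difference 2.10, adjusted p = 1.41e-09). Hk3, the hexokinase of blood cells, was at 0.265 and 0.324 FPKM in the ferret and 4.24 and 4.06 FPKM in the mouse. Pfkfb1, the liver form, was listed at 0 in both ferret libraries and at 1.20 and 1.23 FPKM in the mouse.

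Of 14 other sugar and monocarboxylate carriers tested, 4 were called higher and 7 lower (median -0.53), where 13.1% and 30.1% of all tested genes were called. After rescaling 5 and 5 were called (median -0.30), against 19.1% and 21.7%. Of the 14, 5 were under 1 FPKM in the ferret and 3 in the mouse, so the filter fixed their direction, Slc16a5, Slc16a14, Slc2a4 and Slc16a13 among them. The highest differences belonged to Slc16a5 (log2 difference 2.55), Slc2a12 (2.33), which encodes a sugar transporter, and Slc16a14 (1.89). Slc16a5 measured 5.59 and 5.65 FPKM in the ferret and 0.148 and 0.116 FPKM in the mouse, so it was above 1 FPKM in the ferret alone. Slc2a12, at 14.9 and 15.3 FPKM, and Slc2a8, named after its values were seen, at 15.9 and 18.1 FPKM, both lay above Slc2a1 in the ferret libraries. The lowest were Slc2a4 (-2.48), the insulin-responsive carrier GLUT4, Slc16a13 (-2.39) and Emb (-1.98), which encodes embigin, a partner of MCT2. Slc2a4 measured 0.0549 and 0.0184 FPKM in the ferret and 4.69 and 4.89 FPKM in the mouse, and Emb 2.07 and 2.13 against 11.1 and 11.4 FPKM.

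The pentose phosphate pathway, which branches off after hexokinase and makes NADPH, had 0 of 6 tested genes called in either direction as deposited (13.1% of all tested genes were called higher and 30.1% lower) or rescaled (19.1% and 21.7%). By limma's adjusted p alone, 3 of the 6 (Taldo1, Pgd and Rpia, named after their values were seen) were under 0.05 as deposited, against 88.6% of all tested genes, and all 6 after rescaling, with differences under the size limit. The median log2 difference of the 6 genes was 0.03, and 0.42 after rescaling.

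Of 6 genes for the rest of the pyruvate dehydrogenase complex and its phosphatases, 1 was called higher and 2 lower (median -0.24), and 1 and 1 after rescaling (median 0.14). The shares of all tested genes called higher and lower were 13.1% and 30.1%, and 19.1% and 21.7% after rescaling. The phosphatases, which switch the enzyme on again, differed in opposite directions. Pdp2 measured 12.5 and 12.4 FPKM in the ferret and 1.78 and 2.11 FPKM in the mouse (log2 difference 2.195, adjusted p = 3.42e-09). Pdp1 measured 14.8 and 13.9 FPKM in the ferret and 48.3 and 51 FPKM in the mouse (-1.72, adjusted p = 3.70e-09). Dlat, the E2 core of the complex, had a log2 difference of -1.11 that was -0.73 and not called after rescaling. In pyruvate carboxylation, malic enzymes and gluconeogenesis, 0 of 5 were called higher and 2 lower, against 13.1% and 30.1% of all tested genes. The median of the 5 was -0.75, and -0.38 after rescaling. Those called lower were Me3 (-1.41), a mitochondrial malic enzyme, and Pck2 (-1.19, and -0.84 after rescaling), a mitochondrial carboxykinase. After rescaling 1 was called higher and 1 lower, the former being Me1, the cytosolic malic enzyme, with 118 and 116 FPKM in the ferret and 65.2 and 68.6 FPKM in the mouse (0.80, and 1.19 after rescaling). Pyruvate carboxylase, PC in the ferret values and Pcx in the mouse values, measured 29.3 and 31.1 FPKM in the ferret and 66.0 and 71.9 FPKM in the mouse.

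The shuttles that carry the reducing power of cytosolic NADH into mitochondria had 1 of 9 genes called higher and 2 lower (median -0.46), with the same counts after rescaling (median -0.10). The shares of all tested genes called higher and lower were 13.1% and 30.1%, and 19.1% and 21.7% after rescaling. Mdh2, the mitochondrial malate dehydrogenase, measured 35.1 and 38.9 FPKM in the ferret and 195 and 200 FPKM in the mouse (log2 difference -2.39, adjusted p = 5.00e-10). Gpd1, the cytosolic glycerol phosphate dehydrogenase, was also called lower (-1.62). Slc25a13, the aspartate and glutamate carrier known from liver, was called higher (1.26), at 8.25 and 7.86 FPKM in the ferret and 2.69 and 2.85 FPKM in the mouse.

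**Figure D5:**
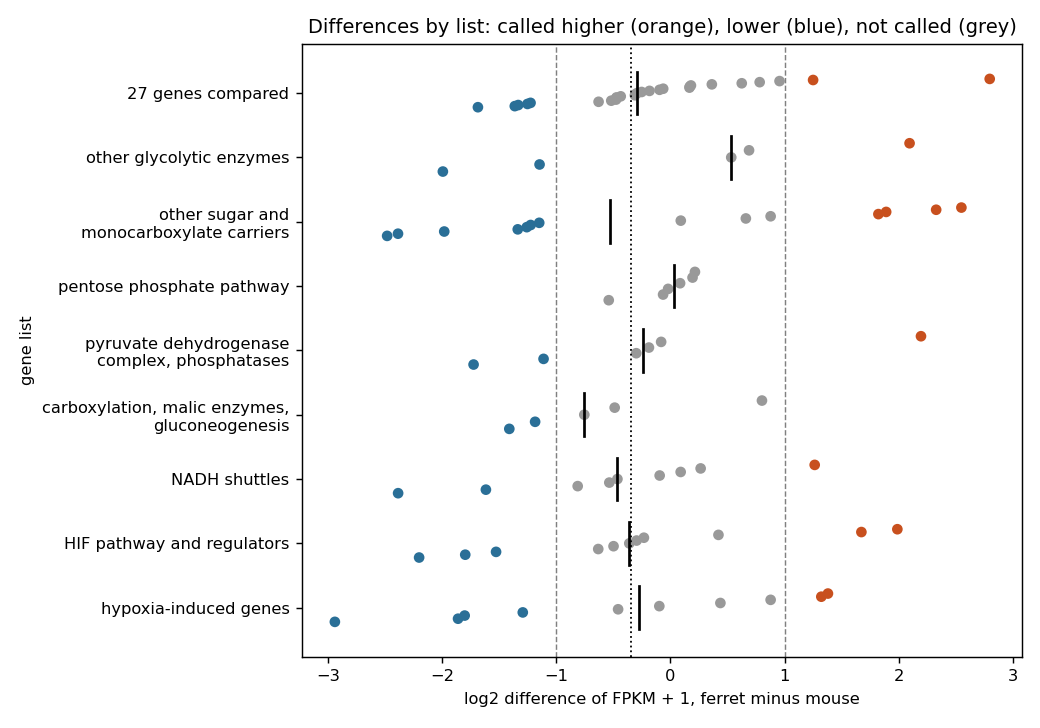
Log2 difference in FPKM + 1, ferret minus mouse, of each tested gene in 9 lists (orange called higher, blue called lower, grey not called), on the deposited scale. Black bars mark list medians, the dotted line the median of all tested genes (-0.35) and dashed lines the size limit, and the pentose phosphate genes are all grey while carriers reach both sides.

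Regulators of glycolytic genes had 2 of 11 called higher and 3 lower, with a median of -0.36, and -0.01 with the same counts after rescaling. All tested genes had a median of -0.35, with 13.1% called higher and 30.1% lower (-0.01, 19.1% and 21.7% after rescaling). Hif1a, the oxygen-regulated transcription factor that induces many glycolytic genes, measured 85.1 and 82.7 FPKM in the ferret and 20.6 and 20.2 FPKM in the mouse (log2 difference 1.99, adjusted p = 7.02e-10). Epas1, its paralog HIF-2 alpha, followed the opposite order, at 4.65 and 5.48 against 26.0 and 27.7 FPKM (-2.20, adjusted p = 3.74e-09). Hif1a was thus the higher of the pair in both ferret libraries and the lower in both mouse libraries. Prkaa1, a catalytic subunit of the energy sensor AMPK, was called higher (1.67), and Egln2 (-1.80), a prolyl hydroxylase that marks HIF for breakdown, and Txnip (-1.53), which restrains glucose uptake, lower. Txnip measured 36.7 and 33.7 FPKM in the ferret and 101 and 105 FPKM in the mouse. Of 10 genes outside glycolysis that hypoxia induces, 2 were called higher and 4 lower (median -0.28), against 13.1% and 30.1% of all tested genes. After rescaling 3 and 3 were called (median 0.09), against 19.1% and 21.7%. Those called higher as deposited were Ankrd37 (1.38), which was under 1 FPKM in the mouse, and Higd1a (1.32). The 3 lower ones with the greatest difference were Ndrg1 (-2.94), Vegfa (-1.86), the endothelial growth factor, and P4ha2 (-1.80), a collagen prolyl hydroxylase. The list did not move in one direction. Carbonic anhydrase 9, a further hypoxia marker spelled CA9 and Car9, measured 7.20 and 6.72 FPKM in the ferret and 1.21 and 1.07 FPKM in the mouse, and was not tested.

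The libraries also differed in markers of cell types. Gfap, the defining filament of astrocytes, chosen here after its values were seen, was at 1481 and 1522 FPKM in the ferret and 1429 and 1546 FPKM in the mouse, with overlapping libraries. Slc1a2, the astrocyte glutamate transporter, also chosen after its values were seen, was at 0.133 and 0.178 FPKM in the ferret and 47.1 and 51.8 FPKM in the mouse. Of 11 astrocyte markers 1, S100b (log2 difference 2.01), was called higher and 7 lower in the ferret, and 2 and 6 after rescaling. For this and the following counts, 13.1% of all tested genes were called higher and 30.1% lower, and 19.1% and 21.7% after rescaling. The most abundant was Aldoc in the ferret and Vim in the mouse. All 14 microglial markers tested were called lower in the ferret, 11 of which were under 1 FPKM there and had their direction fixed by the filter, with sums of 11.6 and 10.9 FPKM against 863 and 836 FPKM, Tmem119 the most abundant in the ferret and Tyrobp in the mouse, and Cx3cr1 listed at 0 in the ferret. Of 10 fibroblast markers 9 were called lower, 4 of which were under 1 FPKM in the ferret, with sums of 132 and 119 FPKM against 1643 and 1618 FPKM and Col1a2 (ferret) and Serpinf1 (mouse) the most abundant. The remaining one, Pdgfra, lay the other way, at 3.07 and 3.23 FPKM in the ferret against 1.64 and 1.23 FPKM in the mouse (0.77, adjusted p = 2.77e-05, and called higher at 1.04 after rescaling). The summed microglial and fibroblast levels were thus higher in the mouse libraries.

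The summed oligodendrocyte and neuronal markers were higher in the ferret libraries. Beside the counts below, 13.1% of all tested genes were called higher and 30.1% lower. Of 7 oligodendrocyte lineage markers tested, 3 were called higher in the ferret and 0 lower. Their list summed to 167 and 185 FPKM against 67.5 and 67.8 FPKM, with Cnp the most abundant in both. The filter fixed the direction of the 2 under 1 FPKM in the mouse, Sox10 (called higher) and Mag (not called). The list went both ways, since Olig2 and Cspg4, named after their values were seen, were lower in the ferret with differences under the size limit (log2 differences -0.82, adjusted p = 1.85e-06, and -0.47, adjusted p = 3.51e-04). Of 4 neuronal markers tested, 3 were called higher and 0 lower. Their list summed to 15.2 and 16.4 FPKM against 4.53 and 4.78 FPKM, with Nefl (ferret) and Syn1 (mouse) the most abundant. The filter fixed the direction of the 2 under 1 FPKM in the mouse, Nefl and Gad1, both called higher. Of the untested neuronal markers, all under 1 FPKM and named after their values were seen, Rbfox3 and Slc17a7 were lower in the ferret and Snap25 higher. Endothelial and red cell markers summed to 0.587 and 0.445 FPKM in the ferret and 25.3 and 25.9 FPKM in the mouse, with Flt1 (ferret) and Cdh5 (mouse) the most abundant, Pecam1, Cdh5 and Tek listed at 0 in the ferret and Cldn5 in the mouse. Cdh5 alone held 22.0 and 22.5 FPKM of the mouse sums, and Pecam1 was at 0.0407 and 0.0312 FPKM in the mouse. The 2 tested genes, Cdh5 and Tek, passed the filter through the mouse alone. The sums of the lists for other cell types differed between the species with no overlap of libraries, although single markers such as Olig2 and Cspg4 did not follow them, so cell makeup and species cannot be told apart here, and in bulk RNA fewer cells of a type and less RNA per cell cannot be told apart either. The part of other cell types in the values of the glycolytic and transport genes was not tested.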

How the data were processed

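Polyadenylated RNA of 2 ferret and 2 mouse astrocyte libraries was measured. The authors mapped the reads (bcl2fastq 2.17, STAR 2.7.0f) to the genome and Ensembl annotation of the same species, and the deposited values are FPKM per gene from Cufflinks 2.2.1, normalized to mapped fragments and exon length. These values hold no read counts, the counts the study lists elsewhere were not used here, and no counting interval is given.

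Symbols were matched in upper case, and of several values the one with the highest species mean was used (1 of the 35 genes, Aldoa, in the mouse). Species were compared with limma 3.58.1 (R 4.3.3, empirical Bayes with trend) on log2(FPKM + 1), keeping genes whose mean reached 1 FPKM in a species, with Benjamini-Hochberg adjustment over all 10204 genes. A fold change on this scale understates that of low genes. The fit was tested on simulated data. Copies were found with BLAST+ 2.17.0, and also had to span at least 50% of their own exon length. Joins used Python 3.11.15.

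The genes and lists were chosen with earlier results of these data known. All 35 genes are named, and of other pathway lists up to 3 genes called as deposited in each direction. Slc2a8, Taldo1, Pgd, Rpia and Eno4 were also named after their values were seen, and Me1 as called after rescaling. Genes spelled differently in the species are named as well. Alternatives were another pseudocount, no filter, rescaling, quantile normalization, median-of-ratios size factors, the replicate block, no trend, other handling of several values and each library left out. Promoter and protein sequences were not analysed here.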

Additional observations from a re-analysis of the deposited data

How the results depend on the processing

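Scaling moved the counts most, which were 2 genes called higher and 5 lower in the ferret with a median of -0.29 as deposited. They were 5 higher and 1 lower (median 0.082) with libraries rescaled to the mean sum, 5 and 2 (0.083) with a sum of 1000000, 4 and 2 (0.071) after quantile normalization, 4 and 3 (0.021) with median-of-ratios size factors, and 3 and 2 (0.071) with mouse copies added and rescaled. The median of all genes under the same settings was -0.01, -0.01, 0.05, -0.07 and -0.01. The difference of 7 genes changed sign from negative to positive, in the order of those settings. Bpgm was 0.189, 0.197, 0.212, 0.13 and 0.193, and Pkm 0.296, 0.296, 0.132, 0.234 and 0.258. Pfkfb2 was 0.065, 0.069, 0.142, 0.008 and 0.068, and Pfkfb3 0.318, 0.324, 0.321, 0.257 and 0.321, and between -0.148 (without ferret replicate 2) and 0.022 (without ferret replicate 1) when a library was left out. Pdk2 was 0.067, 0.069, 0.071, 0.007 and 0.071, and Pdhb 0.133, 0.135, 0.059, 0.072 and 0.086. Mpc1 was 0.082, 0.083, 0.025 and 0.021, and stayed negative with copies added and rescaled (-0.40). Adding mouse copies moved the Eno2 share difference from -0.168 to 0.958 points and that of Bpgm from -2.90 to -1.20 points. Leaving out each library gave 2 to 3 genes called higher, 5 lower and medians from -0.31 to -0.25, and Gapdh was the gene that joined without ferret replicate 1 or mouse replicate 2.

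Another pseudocount, no filter on low values, no trend and other handling of several values kept the counts at 2 and 5. So did the replicate number as a block. The labels share replicate numbers, but the differences between replicates 1 and 2 of the species correlated at 0.01 across 10204 genes, and the block gave 1342 genes called higher and 3072 lower among all genes, against 1336 and 3069. Over single genes and the alternatives other than left-out libraries, 263 results kept their sign and their side of the call, whatever their size and p, 15 fell short of the limit, 12 passed it and 34 changed sign. The 263 include results that an alternative could not change, as with other handling of several values or copies added to genes without copies. Genes with an adjusted p under 0.05 numbered 25 as deposited and 19 to 21 after scaling or with copies added and rescaled, 20 with no filter on low values and 23 with no trend in the prior. With 1 library left out, 6 lost it in at least 1 case (Hk1, Pfkl, Bpgm, Pdk1, Pdk4 and Pdhb) and 2 gained it (Pkm and Pfkfb3). Read counts were not used here, so for genes near 1 FPKM such as Slc16a3 the error given is that of the duplicates.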
